A study of Mus musculus with 10 samples.

Results

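The genes described here are 10 protein-coding genes subject to genomic imprinting: Nnat, Peg3, Peg10, Ndn, Magel2, Snrpn, Cdkn1c, Plagl1, Grb10 and Impact. They were picked by symbol from the 32531 genes counted in each library, and all 10 symbols were present. Imprinted genes are transcribed mainly from the copy inherited from one parent, because that copy and its partner carry different DNA methylation at a control region set in the germline. Many of them regulate growth, metabolism and the development of the brain, and several lie in clusters that share a control region. Nnat, Peg3, Peg10, Ndn, Magel2, Snrpn, Plagl1 and Impact are known for expression from the paternal copy and Cdkn1c from the maternal copy, whereas Grb10 uses the maternal copy in most tissues and the paternal copy in neurons. The counts carry no allele information, so parental origin was not measured here.

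The libraries came from the cerebral cortex of adult mice of the S100a10-TRAP line ES691, in which regulatory sequences of S100a10 drive a ribosomal protein fused to EGFP (EGFP/Rpl10a). Translating ribosome affinity purification (TRAP) captures tagged polysomes with antibodies to EGFP, and the RNA they hold is sequenced. All mice carried the transgene and belonged to a short-access study of intravenous self-administration, with 3 immunopurified (IP) libraries from saline self-administration, 3 from cocaine self-administration and 3 from yoked controls, and 1 input library of total RNA from the saline group. What the yoked controls received, the age beyond adult, the number of mice behind a library and whether replicate libraries are from different mice are not given in the labels. The p-values therefore measure only the spread between these libraries, part or all of which may be technical. According to the library names, each group was on a sequencing lane of its own (4 lanes), and an effect of lane cannot be told apart from one of group.

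Gene counts per library ran from 38653752 to 50898401 for IP and reached 69974908 for input. The labels call the captured cells neurons. Markers of excitatory neurons, summed over 8 genes, stood at 3527 to 5099 CPM (counts scaled to library size) in IP and 4528 in input, and 0 of the 8 differed in saline IP by the test used for the imprinted genes. Markers of meningeal fibroblasts, the collagen-producing cells of the brain coverings, summed over 14 genes to 1509 to 2395 CPM in the IP libraries against 78.6 in the input, and all 14 were higher in saline IP. Mural cell markers (10 genes) summed to 203 to 367 CPM against 41.4, with 5 called higher in saline IP and the other 5 having negative log2 fold changes that were not called. Endothelial markers (10 genes) summed to 67.0 to 103 CPM against 12.4, with 4 called higher. Interneuron markers (8 genes) summed to 323 to 882 CPM against 1216, with 1 called lower, and oligodendrocyte markers (8 genes) to 182 to 757 CPM against 1406, with 3 called lower. No marker of these lists was at 0 in a whole group. Over all genes tested, 7.07% were called higher and 4.26% lower in saline IP. The marker lists were chosen with earlier results of these data known, so these counts are not independent evidence of cell content. In bulk libraries, fewer cells of a type and less RNA per cell cannot be told apart.

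Promoter windows of 4 of the genes are shown because these are the members in the RefSeq promoter table (build GRCm38.p6) that differed between saline IP and input or whose cocaine and saline libraries did not overlap. Of the 10 genes, 7 matched that table, with 11 windows of 300 bases, and Cdkn1c, Impact and Peg10 did not. Each sequence is written 5′ to 3′ along the gene's own strand, lies mostly upstream of the RefSeq start, and has its CG dinucleotides, the sites that carry DNA methylation, in capitals. The Nnat window is chr2:157559828-157560127 on the plus strand, the Snrpn window chr7:60005150-60005449 on the minus strand (1 of 4 for this gene, the one with the most CG), the Peg3 window chr7:6730370-6730669 on the minus strand and the Plagl1 window chr10:13090582-13090881 on the plus strand.
Nnat: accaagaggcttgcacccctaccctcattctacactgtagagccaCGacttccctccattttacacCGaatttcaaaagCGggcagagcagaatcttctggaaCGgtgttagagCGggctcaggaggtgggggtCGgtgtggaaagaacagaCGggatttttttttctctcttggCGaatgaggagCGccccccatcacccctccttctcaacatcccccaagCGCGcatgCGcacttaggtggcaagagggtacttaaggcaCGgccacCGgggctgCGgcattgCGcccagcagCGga
Snrpn: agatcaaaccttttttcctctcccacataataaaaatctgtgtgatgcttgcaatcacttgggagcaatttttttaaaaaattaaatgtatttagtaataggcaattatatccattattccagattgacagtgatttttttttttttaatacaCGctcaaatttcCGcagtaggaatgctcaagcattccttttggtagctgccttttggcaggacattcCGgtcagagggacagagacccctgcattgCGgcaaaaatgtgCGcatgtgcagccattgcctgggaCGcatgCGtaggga
Peg3: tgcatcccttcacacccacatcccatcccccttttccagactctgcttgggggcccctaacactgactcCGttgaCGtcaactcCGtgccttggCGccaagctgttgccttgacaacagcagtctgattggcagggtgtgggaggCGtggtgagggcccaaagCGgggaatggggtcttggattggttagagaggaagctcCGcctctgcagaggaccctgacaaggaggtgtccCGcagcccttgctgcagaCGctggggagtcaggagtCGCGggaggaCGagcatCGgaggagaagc
Plagl1: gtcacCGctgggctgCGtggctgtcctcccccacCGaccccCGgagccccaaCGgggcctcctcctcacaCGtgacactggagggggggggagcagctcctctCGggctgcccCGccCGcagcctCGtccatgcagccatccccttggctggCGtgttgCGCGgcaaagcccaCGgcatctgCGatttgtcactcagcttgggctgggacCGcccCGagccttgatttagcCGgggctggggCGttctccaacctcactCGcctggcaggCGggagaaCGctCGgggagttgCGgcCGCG

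The Plagl1 window held 26 CG, Nnat 17, Peg3 13 and Snrpn 7, against a median of 7 and an upper quartile of 20 over all 32851 promoter windows of the same length. Plagl1 thus had more CG than 83.1% of all windows, and the printed Snrpn window more than 47.9%. The hexamer TGCCGC is the core recognised by ZFP57, a zinc finger protein that maintains imprints on methylated DNA. It was found once on either strand in each of the Nnat, Snrpn and Plagl1 windows and not in the Peg3 window, and 11.6% of all windows hold it. A match of letters describes the window only.

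The order of the 10 genes in the IP libraries was led by Nnat, which encodes neuronatin, a small membrane proteolipid linked to calcium handling in the endoplasmic reticulum. To compare genes, levels were divided by the exon length of the gene and are given as CPM per kilobase, as the median over the 9 IP libraries. Nnat stood at 402 CPM per kilobase (305 to 557 over libraries) and Impact at 77.0 (62.7 to 111). Impact encodes an inhibitor of the stress kinase GCN2, which controls translation initiation. Ndn followed at 32.9, Peg3 at 16.4, Cdkn1c at 16.2, Grb10 at 8.19, Peg10 at 3.75 and Plagl1 at 3.06 CPM per kilobase. Snrpn (0.240) and Magel2 (0.0909) were far below the others. The Snrpn value is uncertain, since Snurf, which lies wholly within its exons, was counted separately, at 17.7 CPM in saline IP. The library ranges overlapped between the neighbours Ndn and Peg3, Peg3 and Cdkn1c, Peg10 and Plagl1, and Snrpn and Magel2, so their order is not separated by the spread. In the input the order differed at the top, with Impact at 89.9 and Nnat at 88.2 CPM per kilobase, and Cdkn1c stood in place 7 instead of 5. With the longest transcript as the length, an added choice, Plagl1 (4.55) came before Peg10 (3.75) and the ranges of Cdkn1c and Grb10 also overlapped.

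**Figure D1:**
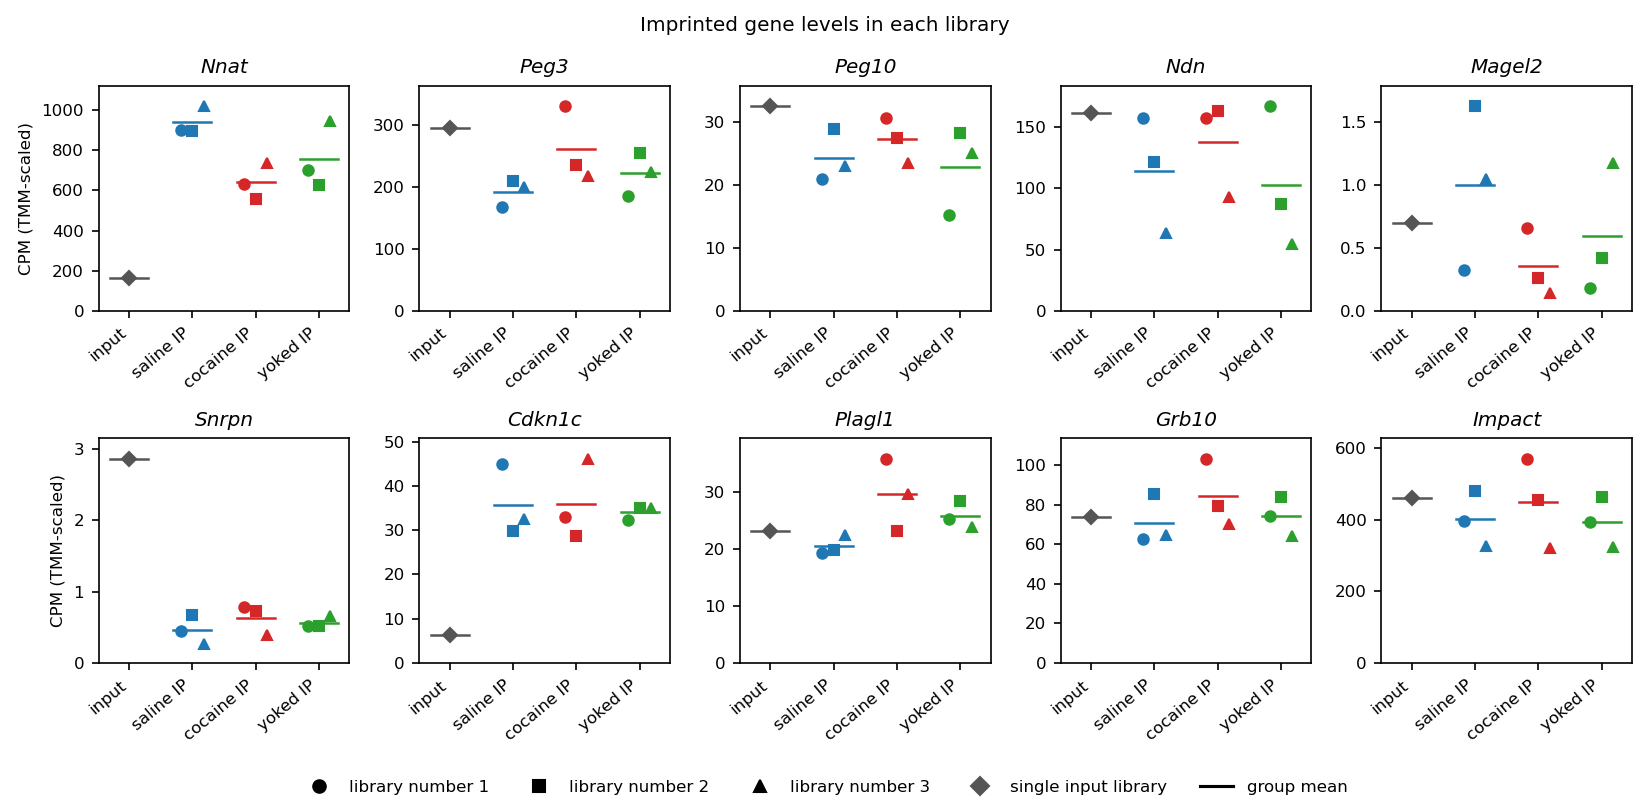
Level of each of the 10 genes in every library, in CPM scaled with TMM factors (vertical axis from 0, a separate scale per gene), by group (horizontal axis). Symbols mark the library number, the diamond is the single input library and lines are group means. Nnat and Cdkn1c lie above the input in all 9 IP libraries, as do 21.5% of all genes tested. Snrpn and Peg10 lie below it in all 9, as do 22.5% of all genes tested.

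Saline IP was first compared with saline input, which asks whether RNA of these genes was over- or under-represented on the tagged ribosomes. Nnat and Cdkn1c were higher in the IP, each by more than 5-fold, and Snrpn was lower by 6.19-fold. The other 7 genes did not pass the test. The 3 called genes of 10 tested stand beside 11.3% of all 18437 genes tested (7.07% higher and 4.26% lower) at an adjusted p under 0.05 by edgeR's quasi-likelihood test. The same 3 genes were called under each of the 16 other settings tried, DESeq2 included. The number of all genes called ranged from 1464 without the first saline library to 3442 without the libraries numbered 3. All settings used the same deposited counts. They therefore do not bear on how reads were split between Snrpn and the overlapping Snurf. At an unadjusted p under 0.05 there were 4 of the 10, Peg3 being the fourth, against 25.1% of all genes. All 3 saline IP libraries lay above the input for 2 of the 10 genes, against 31.6% of all genes, and below it for 5 of the 10, against 33% of all genes. The median log2 fold change of the 10 genes was -0.19 (-0.31 without the second saline library), against 0.02 over all genes tested. The input is a single library, assumed to vary like the IP libraries.

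Nnat (chr2:157560078-157562522, plus strand, GRCm38, GENCODE M21) lies within an intron of Blcap, an apoptosis-related gene on the opposite strand. Its level was 903, 896 and 1018 CPM in the saline IP libraries and 161 in the input. All 3 IP values were far above the input and close to each other. The log2 fold change was 2.54 ± 0.28 (SE), a 5.82-fold difference with an adjusted p of 5.71e-05 by edgeR. Over the 9 IP libraries of the 3 treatment groups, the log2 ratio to the input lay between 1.79 and 2.66. The host gene Blcap, which shares no exon base with Nnat, had 45.8 ± 3.09 CPM (SD, n = 3) in saline IP and 46.1 in the input, a log2 fold change of -0.01 ± 0.21. The difference between the 2 genes of the locus was not tested.

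Cdkn1c encodes p57, an inhibitor of cyclin-dependent kinases that halts the cell cycle, and lies at chr7:143458339-143461050 on the minus strand. Its level was 45.0, 29.7 and 32.5 CPM in saline IP and 6.29 in the input, where 421 reads were counted. Every saline IP value was more than 4-fold above the input. The log2 fold change was 2.51 ± 0.34, a 5.68-fold difference with an adjusted p of 0.000309 by edgeR. Over all 9 IP libraries the log2 ratio to the input ran from 2.19 to 2.88. An antisense transcript, Gm44732, shares 30.65% of the exon bases of Cdkn1c in GENCODE M21, and since the strand setting of the counting is not given, reads of that pair cannot be told apart. The markers of meningeal fibroblasts given above were higher in the same IP libraries; their part in the values of Nnat and Cdkn1c was not tested.

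Of 10 other listed imprinted genes of the Cdkn1c cluster on chromosome 7, 2 were called higher in saline IP, 1 was called lower and 7 were not called. Among all genes tested, 7.07% were called higher and 4.26% lower. Slc22a18, which encodes a membrane transporter, was higher in saline IP (3.89 CPM against 0.134), with a log2 fold change of 4.83 ± 0.59 and an adjusted p of 0.000120 by edgeR. Osbpl5, which encodes a lipid transfer protein, was higher by 1.24 ± 0.24 on the log2 scale (adjusted p = 0.00431, edgeR). Kcnq1ot1, the paternally expressed noncoding RNA that silences the cluster on that chromosome copy, was lower by 6.84-fold (1.83 against 12.6 CPM, adjusted p = 0.000615, edgeR). Kcnq1ot1 lies wholly within Kcnq1 on the opposite strand. Since the strand setting of the counting is not given, reads of that pair may not be told apart where they overlap. Nap1l4, which encodes a histone chaperone, had 113 CPM in saline IP and 107 in the input. Its log2 fold change of 0.08 ± 0.25 did not pass the test. Cd81, a tetraspanin gene (316 CPM against 199), and Tssc4 (25.2 against 18.9) had log2 fold changes of 0.66 ± 0.26 and 0.42 ± 0.25. The input value of Slc22a18 rested on 9 reads. Kcnq1, a potassium channel gene, had 0.476 CPM in saline IP and 2 reads in the input. Ascl2 had 0.0685 CPM against 0.239. Tspan32 had 0.136 to 1.13 CPM in saline IP and no read in the input. Phlda2, a growth-restraining gene of the placenta, had no read in the input either and 0.238 to 0.806 CPM in the saline IP libraries (adjusted p = 0.0577, edgeR).

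**Figure D2:**
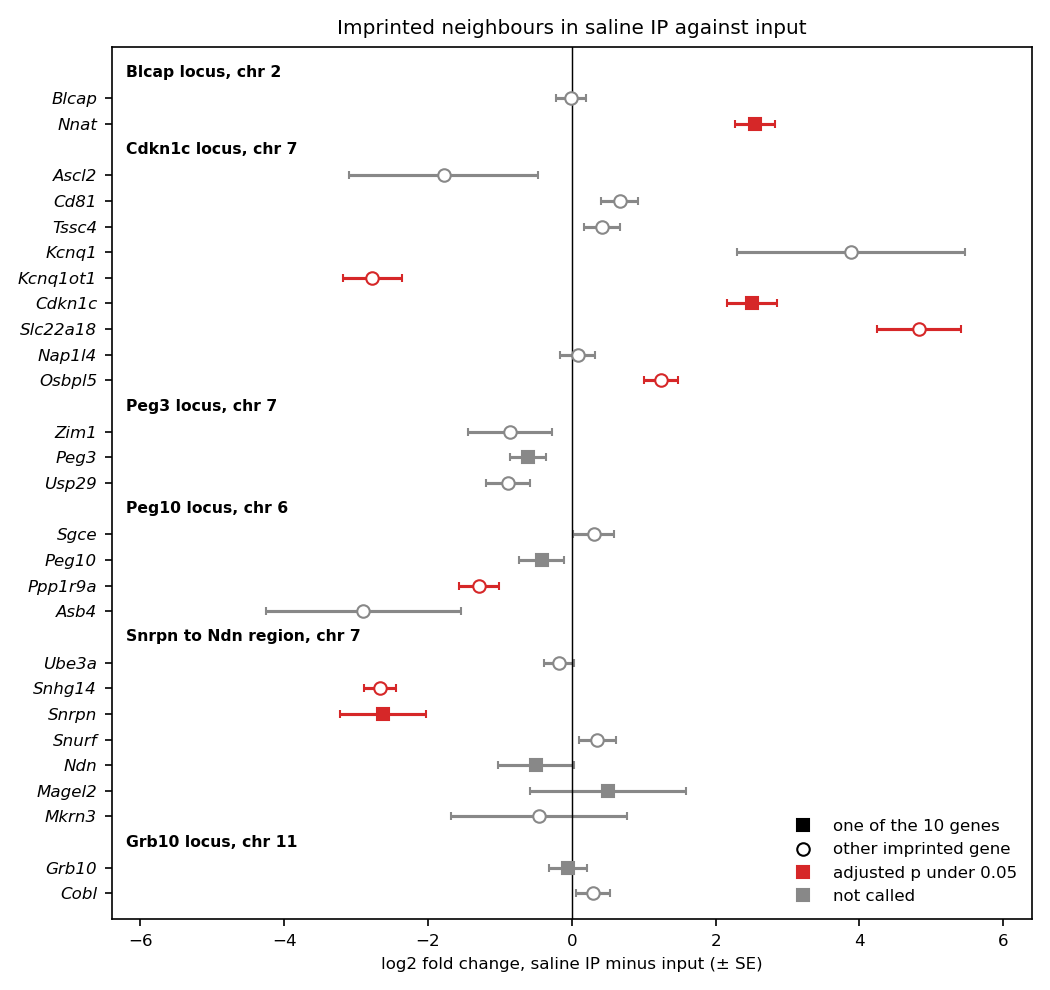
Log2 fold change (horizontal axis, ± SE) of saline IP against input for members (squares) and other imprinted genes (circles) grouped by locus, red where the adjusted p was under 0.05. Nnat stands at 2.54 beside Blcap at -0.01, Cdkn1c at 2.51 beside Kcnq1ot1 at -2.77, and Snrpn at -2.63 beside Snurf at 0.35. Phlda2 and Tspan32, with no read in the input, are not drawn.

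Snrpn, Ndn and Magel2 lie in the chromosome 7 region whose human counterpart is lost in Prader-Willi syndrome. Snrpn (chr7:59982495-60140219, minus strand) encodes SmN, a spliceosomal protein prominent in neurons. It was counted at 0.443, 0.678 and 0.261 CPM in saline IP and 2.87 CPM in the input, that is 11 to 30 reads against 192. No IP library of any group reached the input, and the log2 ratio to it ran from -3.46 to -1.86. The log2 fold change of saline IP was -2.63 ± 0.60 (adjusted p = 0.0120, edgeR). In GENCODE M21, 34.1% of the exon bases of Snrpn are shared with other genes, and Snurf, the short upstream reading frame made from the same transcript, lies wholly within exons of Snrpn, so the split of reads between the pair is uncertain. Snurf had 17.7 ± 2.01 CPM (SD, n = 3) in saline IP and 13.8 in the input, a log2 fold change of 0.35 ± 0.26 that did not pass the test. The ratio of Snurf counts to Snrpn counts, not scaled by length, was 4.82 in the input and between 17.6 and 71.7 in the 9 IP libraries. Reads that the counting left as ambiguous made up 5.65% in the input and 1.58% to 1.90% in the IP libraries, and their part in the Snrpn values was not tested.

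Ndn (chr7:62346569-62350262, plus strand) encodes necdin, a MAGE family protein that promotes neuronal survival and exit from the cell cycle. Its saline IP levels were 158, 122 and 63.3 CPM, against 161 in the input. The highest of the 3 came close to the input and the lowest stood well below it, so the log2 fold change of -0.50 ± 0.52 had an adjusted p of 0.620 by edgeR. Magel2 (chr7:62377010-62381640, plus strand) encodes a MAGE protein of endosomal sorting known from the hypothalamus. It was near the limit of detection, at 0.322, 1.63 and 1.05 CPM in saline IP (16 to 72 reads) and 0.702 CPM in the input (47 reads). The log2 fold change of 0.50 ± 1.08 did not pass the test, and its error allows a change of several fold in either direction. In the same region the noncoding host transcript Snhg14 was lower in saline IP (15.8 against 101 CPM, log2 fold change -2.67 ± 0.22, adjusted p = 8.09e-06, edgeR). Ube3a, the ubiquitin ligase gene of Angelman syndrome, had 49.8 CPM against 56.3 and did not pass. Mkrn3, a ring finger gene of the region, was counted at 0.636 CPM against 0.881. Its log2 fold change of -0.46 ± 1.22 is as imprecise as that of Magel2. Peg12, another gene of the region, had 0.169 CPM against 0.0299 and was too low to be tested.

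Peg3 and Peg10 are zinc finger and retroelement-derived genes, both known for roles in the placenta. Peg3 (chr7:6703892-6730431, minus strand) encodes a large zinc finger protein and was at 167, 210 and 199 CPM in saline IP and 294 in the input. All 3 saline values were below the input, but the log2 fold change of -0.62 ± 0.25 missed the threshold after adjustment (adjusted p = 0.139, edgeR). Usp29, which shares the Peg3 control region and runs the opposite way, had a log2 fold change of -0.89 ± 0.30 (adjusted p = 0.0776, edgeR), and Zim1, a zinc finger gene on its other side, one of -0.86 ± 0.58 at 0.938 CPM. Peg10 (chr6:4747306-4760517, plus strand) encodes a capsid-like protein, with 20.9, 28.8 and 22.9 CPM in saline IP and 32.4 in the input. Its log2 fold change was -0.42 ± 0.31 (adjusted p = 0.443, edgeR), although all 9 IP libraries were below the input, as were those of 22.5% of genes tested. Sgce, the neighbour that starts beside Peg10 on the other strand and encodes a sarcoglycan, had a log2 fold change of 0.30 ± 0.29.

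Plagl1, Grb10 and Impact had nearly equal levels in saline IP and input, with log2 fold changes of -0.17 ± 0.25, -0.06 ± 0.26 and -0.20 ± 0.30. Plagl1 (chr10:13060504-13131694, plus strand) encodes a zinc finger transcription factor that restrains growth and regulates other imprinted genes, and was at 19.4, 19.8 and 22.5 CPM against 23.1. Grb10 (chr11:11930508-12038683, minus strand) encodes an adaptor that dampens insulin and growth factor receptors, and was at 62.4, 85.5 and 64.5 CPM against 73.6. Impact (chr18:12955852-12992950, plus strand) was at 395, 481 and 325 CPM against 461. The input fell within the saline IP range for Grb10 and Impact and just above it for Plagl1. Cobl, an actin-nucleating gene next to Grb10, had a log2 fold change of 0.30 ± 0.24.

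Other imprinted genes were called in both directions. Of 22 genes tested of 24 listed as paternally expressed, 2 were higher in saline IP and 5 lower. Over all genes tested, 7.07% were higher and 4.26% lower. The 2 were Igf2, the growth factor gene (746 against 51.2 CPM, log2 fold change 3.87 ± 0.51), and Slc38a4, an amino acid transporter gene (1.61 ± 0.39). The 5 were Kcnq1ot1, Snhg14, Dlk1 (-2.14 ± 0.55), Zdbf2 (-1.32 ± 0.22) and Inpp5f (-0.86 ± 0.18). Of 29 genes tested of 30 listed as maternally expressed, Slc22a18 and Osbpl5 were higher and 4 were lower. The 4 were the noncoding RNAs Meg3 (61.0 against 788 CPM, log2 fold change -3.69 ± 0.34) and Rian (-2.01 ± 0.30), the neuronal scaffold gene Ppp1r9a (-1.29 ± 0.28) and Klf14. The median log2 fold changes of the 2 lists were -0.09 and -0.03, against the 0.02 over all genes. The lists go by known imprinting, and parental origin was not measured in these libraries. Other annotated genes, an antisense one among them, share 64.55% of the exon bases of Igf2, so its counts are uncertain.

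Cocaine IP was then compared with saline IP, which asks whether self-administered cocaine went with other levels of these genes on tagged ribosomes. None of the 10 genes was called. The 3 genes whose libraries did not overlap were Nnat, lower in cocaine, and Peg3 and Plagl1, higher in cocaine, each by less than 1.5-fold. The count of 0 of 10 stands beside 0% of the 16642 genes tested with edgeR, where 530 genes (3.18%) had an unadjusted p under 0.05, and DESeq2 also called 0, with 633 genes at an unadjusted p under 0.05. Non-overlapping libraries, seen in 3 of 10 members, occurred in 8.97% of all genes tested (4.64% higher and 4.32% lower). The median log2 fold change of the 10 genes was 0.20, against -0.02 over all genes, and single libraries moved it: it was 0.07 without either the first cocaine or the third saline library, 0.31 without the second saline library and 0.36 without the third cocaine library.

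Nnat was at 633, 558 and 734 CPM in cocaine IP, against 896 to 1018 in saline IP. The highest cocaine library was below the lowest saline library. The log2 fold change was -0.56 ± 0.17, with an unadjusted p of 0.00490 and an adjusted p of 0.990 by edgeR. Plagl1 was at 35.9, 23.1 and 29.7 CPM in cocaine IP, against 19.4 to 22.5 in saline, and the lowest cocaine value lay just above the highest saline value. Its log2 fold change was 0.51 ± 0.18, with an unadjusted p of 0.0125 and an adjusted p of 0.990 by edgeR. Peg3 was at 330, 235 and 218 CPM in cocaine IP, against 167 to 210 in saline, with the first cocaine library apart from the rest. Its log2 fold change was 0.43 ± 0.18, with an unadjusted p of 0.0353 and an adjusted p of 0.990 by edgeR, and it was 0.23 without that first library.

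Fold changes differed with transcript length, both between the groups and between saline IP and input. In saline IP against input, the median log2 fold change was 0.38 over 2107 genes with a longest transcript under 1500 bases. It was -0.20 over 3456 genes above 5000 bases. With that trend removed, an alternative chosen after seeing the data, Nnat stood at 2.30, Cdkn1c at 2.32, Snrpn at -2.80 and Peg3 at -0.31. The values as fitted were 2.54, 2.51, -2.63 and -0.62. Length as a cause of these values was not tested. In cocaine against saline, the median log2 fold change was -0.24 over 1786 genes with a longest transcript under 1500 bases and 0.09 over 3383 genes above 5000 bases. The longest transcript has 1448 bases for Nnat, 8694 for Peg3 and 5260 for Plagl1. Nnat and Plagl1 lay close to the limits of these classes, and the exons of Nnat together cover 1829 bases. Length as a cause of the 3 differences was not tested. After the trend with length was removed from the fit, an alternative chosen after seeing the data, the log2 fold change was -0.40 ± 0.19 for Nnat (unadjusted p = 0.0580), 0.31 ± 0.17 for Peg3 (unadjusted p = 0.0877) and 0.45 ± 0.16 for Plagl1 (unadjusted p = 0.0157). The difference between long and short genes also varied within groups, being -0.30, -0.31 and 0.12 in the saline libraries and 0.20, -0.08 and 0.19 in the cocaine libraries. Meningeal fibroblast markers summed to 1761 to 2308 CPM in saline IP and 1509 to 2231 in cocaine IP. In cocaine against saline, 13 of the 14 lay below 0 (median log2 fold change -0.23). Oligodendrocyte markers summed to 210 to 575 CPM in saline IP and 255 to 757 in cocaine IP, all 8 above 0 (median 0.58). Over all genes tested, 46.9% lay above 0, and 0 markers of either list were called. The part of these markers in the Nnat, Peg3 and Plagl1 values was not tested.

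The other 7 genes overlapped between cocaine and saline. Cdkn1c was at 33.0, 28.7 and 46.1 CPM in cocaine IP, with a log2 fold change of -0.01 ± 0.20 against saline. The sign of that value changed with the scaling. Snrpn was at 0.792, 0.723 and 0.388 CPM, with a log2 fold change of 0.44 ± 0.53. Ndn was at 157, 163 and 93.0 CPM and had a log2 fold change of 0.26 ± 0.39. Magel2 was at 0.656, 0.263 and 0.143 CPM, with 7 to 29 reads a library, and its log2 fold change of -1.51 ± 0.79 rests on those few reads. Grb10 (103, 79.2 and 70.0 CPM), Impact (570, 455 and 322 CPM) and Peg10 (30.6, 27.5 and 23.4 CPM) had log2 fold changes of 0.24 ± 0.19, 0.15 ± 0.22 and 0.16 ± 0.22. In each of these 3 genes the first cocaine library was the highest of its group.

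**Figure D3:**
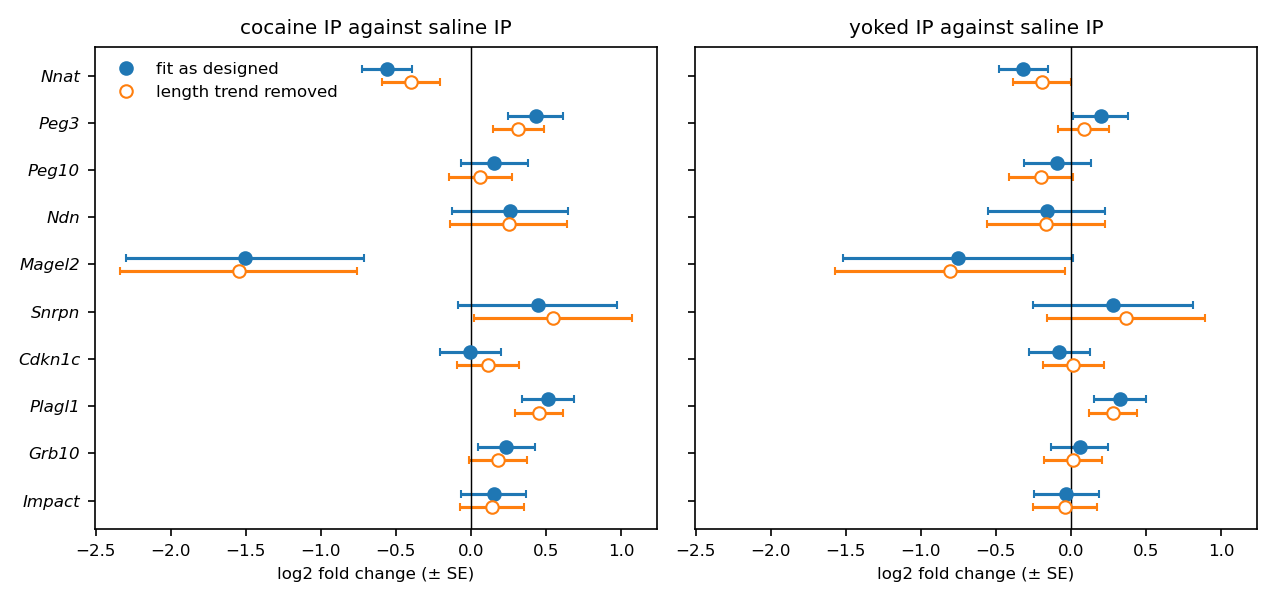
Log2 fold change (horizontal axis, ± SE) of cocaine IP (left) and yoked IP (right) against saline IP for each gene, as fitted (filled) and after removal of the trend with transcript length (open). In cocaine, Nnat lies at -0.56 and -0.40, Peg3 at 0.43 and 0.31, and Plagl1 at 0.51 and 0.45; no gene was called in either contrast.

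Yoked IP was compared with the same saline libraries, so this contrast and the last share their controls. None of the 10 genes was called, beside 0% of all genes tested with edgeR. At an unadjusted p under 0.05 there were 0 of the 10 genes and 398 genes in all (2.39%), and DESeq2 called 0, with 456 at an unadjusted p under 0.05. Nnat was at 703, 626 and 944 CPM in yoked IP, a log2 fold change of -0.32 ± 0.16, and its highest yoked library fell within the saline range. Plagl1 was at 25.2, 28.5 and 23.9 CPM, above all 3 saline libraries, with a log2 fold change of 0.33 ± 0.18 (unadjusted p = 0.0866). It was the 1 gene of the 10 without overlap, against 6.08% of genes tested (3.03% higher and 3.05% lower). Peg3 was at 186, 255 and 224 CPM, with a log2 fold change of 0.20 ± 0.18 and libraries that overlapped the saline ones.

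The remaining genes had values in yoked IP that overlapped both other groups. Cdkn1c was at 32.2, 35.0 and 35.0 CPM and had a log2 fold change of -0.08 ± 0.20 against saline. Ndn was at 167, 86.9 and 54.2 CPM, a spread of about 3-fold within the group. Peg10 was at 15.2, 28.2 and 25.0 CPM and Grb10 at 74.4, 83.7 and 63.9 CPM. Impact was at 394, 464 and 323 CPM; the saline range was 325 to 481 CPM. Snrpn was at 0.519, 0.517 and 0.655 CPM and Magel2 at 0.181, 0.421 and 1.17 CPM. None of their log2 fold changes against saline passed the test, and they ranged from -0.75 ± 0.77 for Magel2 to 0.28 ± 0.53 for Snrpn.

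Cocaine IP and yoked IP were compared directly as well. No gene of the 10 was called, beside 0% of all genes tested with edgeR, where 159 genes (0.955%) had an unadjusted p under 0.05, and DESeq2 called 0, with 211 at an unadjusted p under 0.05. No gene of the 10 had non-overlapping libraries, against 4.74% of genes tested (2.49% higher and 2.25% lower). The log2 fold change was -0.24 ± 0.16 for Nnat, 0.23 ± 0.18 for Peg3, 0.19 ± 0.18 for Plagl1 and 0.42 ± 0.39 for Ndn. A joint test of any difference between the 3 IP groups called 0 of the 10 genes and 0% of all genes (268 genes, or 1.61%, at an unadjusted p under 0.05), and DESeq2 called 0, with 383 at an unadjusted p under 0.05. Nnat (unadjusted p = 0.0156) and Plagl1 (unadjusted p = 0.0379) were the 2 members under 0.05 before adjustment in the joint test, and neither passed after adjustment by edgeR.

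Within each group the library numbered 3 held the lowest Ndn and Impact values. Ndn was at 54.2 to 93.0 CPM in the 3 libraries with that number and at 86.9 to 167 CPM in the other 6. Impact was at 322 to 325 CPM against 394 to 570 CPM, with no overlap. Nnat was the highest of its group in every library numbered 3. Of all genes tested, 13.4% were lowest and 16.1% highest in that library of every group, and of 48 other imprinted genes 9 were lowest and 11 highest. Marker sums of the same libraries lay apart from and above those of the other 6 for excitatory neurons (4875 to 5099 CPM against 3527 to 4777), mural cells (303 to 367 against 203 to 270) and endothelium (102 to 103 against 67.0 to 84.6). The sums overlapped for meningeal fibroblasts (2231 to 2395 CPM against 1509 to 2237), interneurons (323 to 441 against 412 to 882) and oligodendrocytes (182 to 255 against 210 to 757). The part of these markers in the Ndn, Impact and Nnat values was not tested. Without the 3 libraries, an alternative chosen after seeing the data, the log2 fold change of cocaine against saline was -0.61 for Nnat, 0.57 for Peg3 and 0.58 for Plagl1, and that of saline IP against input was 2.47 for Nnat, 2.56 for Cdkn1c and -2.36 for Snrpn.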

How the data were processed

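The authors deposited raw read counts per gene symbol for 10 libraries. Per the submitters' processing notes, STAR 2.0.0e, HTSeq and the mm10 build were used. For HTSeq's version, its strand setting and the gene models, the sources used here give nothing. Besides 32531 genes, a table has 6 non-gene entries, kept out of all sizes and fits. Multi-mapped reads took 38.3% to 46.8%, reads without a feature 6.08% to 9.52% and ambiguous reads 1.58% to 5.65% of the reads that were assigned, ambiguous, without a feature or not unique.

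Counts were tested with edgeR 4.0.16 (R 4.3.3): TMM factors, filterByExpr with a minimum count of 10, the quasi-likelihood test and Benjamini-Hochberg adjustment over all genes tested, with a threshold of 0.05. Contrasts between IP groups came from 1 fit of the 9 IP libraries (16642 genes), and saline IP against input from a fit of all 10 (18437 genes). All 10 members passed the filter. Levels are TMM-scaled CPM, as mean ± SD. Fold changes carry SE, computed from the F statistic. Alternatives were DESeq2 1.42.0, its size factors, no filter, sizes without Rn45s and Ptgds, only the groups compared, a block for library number, leaving out each library, and, added after seeing the data, removal of the length trend, leaving out the libraries numbered 3 and another length for levels. Scripts were tested on simulated data. The text names all 10 members and, from fixed lists, other imprinted genes and relatives that were called at an average log2 CPM of at least 1, that neighbour a member or that are its paralogs; Klf14, below that level, and Nap1l4, Ube3a, Kcnq1, Cd81, Tssc4, Ascl2, Tspan32 and (in the plot of loci) Asb4, outside the rule, were named after their values were seen. Members and lists were chosen with earlier results of these data known. Lengths and coordinates come from GENCODE M21 (GRCm38), the same assembly as mm10, and may differ from the annotation counted on.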

Additional observations from a re-analysis of the deposited data

How the results depend on the processing

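The 3 calls in saline IP against input and the counts of 0 in the other contrasts held under every alternative run, leaving out each library included. All alternatives used the same deposited counts, so the split of reads between Snrpn and Snurf was not varied. Values that changed sign were all of genes not called. Grb10 in saline IP against input was 0.0652 (log2) with the length trend removed. In cocaine against saline, Cdkn1c was 0.0038 with DESeq2 size factors and with DESeq2, 0.0043 with only the groups compared and 0.11 with the length trend removed. In yoked against saline, Cdkn1c was 0.0170 with the length trend removed and Snrpn -0.12 without the libraries numbered 3; in cocaine against yoked, Magel2 was 0.57 and Cdkn1c -0.13 without those libraries. The cause was not tested. Leaving out 1 library at a time, saline IP against input ranged from -0.0684 to 0.927 for Magel2 and -0.237 to 0.0269 for Grb10. Cocaine against saline ranged from -0.0256 to 0.574 for Ndn, -0.22 to 0.21 for Cdkn1c and -0.0506 to 0.353 for Impact. Yoked against saline ranged from -0.27 to 0.13 for Peg10, -0.70 to 0.15 for Ndn, -0.19 to 0.13 for Cdkn1c, -0.0341 to 0.218 for Grb10 and -0.16 to 0.12 for Impact. Cocaine against yoked ranged from -1.54 to 0.21 for Magel2, -0.0200 to 0.425 for Snrpn, -0.14 to 0.21 for Cdkn1c and -0.0196 to 0.380 for Impact.

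Library numbers are shared by the groups, but the labels do not say that they pair libraries. Deviations from group means correlated between -0.09 and 0.51 over the 9 same-numbered pairs, and between -0.55 and 0.46 over pairs with different numbers. The pairs numbered 3 gave 0.48 to 0.51, those numbered 2 gave 0.11 to 0.41 and those numbered 1 gave -0.09 to 0.24. Of 9 libraries, 6 correlated best with one of their own number. No chance level was worked out for this count, so it does not show that numbers pair libraries. With the replicate block, 0 members and 0 genes were called in each contrast, and genes at an unadjusted p under 0.05 numbered 1154, 690 and 439 (cocaine against saline, yoked against saline, cocaine against yoked) in place of 530, 398 and 159, and 684 in place of 268 in the joint test. Nnat in cocaine against saline was -0.57 ± 0.12 under the block (adjusted p = 0.717, edgeR). The block could not be applied to saline IP against input, which has 1 input library. Magel2 and Snrpn were counted with few reads, 7 to 72 and 11 to 35 per IP library; whether depth or the spread between libraries sets their errors was not tested. Groups of 3 are too small to screen for single outlying libraries.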

Other observations

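Relatives and partners of the imprinted genes were measured alongside them. Of 18 tested, 0 were higher and 1 was lower in saline IP against input by edgeR, beside 7.07% and 4.26% of all genes tested. The median log2 fold change was 0.01 over the list and 0.02 over all genes tested. The 1 gene was Grb14, a paralog of Grb10 that also binds the insulin receptor, with 10.7 ± 2.91 CPM (SD, n = 3) in saline IP and 26.6 CPM in the input. Its log2 fold change was -1.31 ± 0.32 (adjusted p = 0.0178, edgeR), whereas Grb10 had -0.06 ± 0.26 and Grb7, the other member of the adaptor family, 0.00 ± 0.51; the differences between paralogs were not tested.

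The paralogs of Cdkn1c did not show its enrichment past the threshold. Cdkn1a, which encodes p21, had a log2 fold change of 0.23 ± 0.29 (36.2 ± 3.14 CPM, SD, n = 3, against 30.9), and Cdkn1b, which encodes p27, one of 0.01 ± 0.25 (44.9 ± 6.61 CPM, SD, n = 3, against 44.6). Plag1 and Plagl2, relatives of Plagl1, had log2 fold changes of -0.46 ± 0.32 and 0.27 ± 0.30. Maged1, a MAGE gene related to Ndn and Magel2, was at 493 CPM in both fractions. Snrpb, which encodes the spliceosomal protein closest to that of Snrpn, had a log2 fold change of 0.59 ± 0.27 (adjusted p = 0.186, edgeR), opposite in sign to Snrpn; this difference was not tested either. In the contrasts between IP groups, 0 of the 18 were called by edgeR.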
